A study of Mus musculus with 59 samples.

Results

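The genes described here are those for glutamate receptor subunits, GABA receptor subunits and the scaffold and adhesion proteins of the synapse, chosen by symbol: AMPA, delta, kainate and NMDA subunits (Gria, Grid, Grik, Grin), metabotropic glutamate receptors (Grm), GABA-A and GABA-B subunits (Gabr, Gabbr), and the Dlg, Dlgap, Shank, Nlgn, Nrxn, Lrrtm, Cntnap, Lrfn and Slitrk families. The symbol rule found 27 of the 4484 genes in the table, where 90 annotated genes carry such a symbol, and the other 63 are not analysed here. Among those 63 are Grin1, Gria2, Gabbr2, Nlgn2 and every Shank and Dlgap gene. Of the 27 genes, 26 passed the filter of at least 10 reads in at least 4 libraries, as did 4273 genes in all.

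Total RNA was sequenced from homogenate medial prefrontal cortex, the frontal midline cortex of the mouse, of adult wild-type C57BL/6J mice, an inbred strain. Mice of both sexes were killed every 4 h over a day, first at ZT2 and last at ZT22 (zeitgeber time, in which ZT0 is lights on by convention). The 12 groups of time and sex hold 5 libraries each, or 4 in the case of ZT10 females, which makes 59 in all, 30 from males and 29 from females. The labels name no treatment and no genetic change.

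Fast excitation in cortex runs through AMPA, kainate and NMDA receptors, and fast inhibition through GABA-A receptors, while metabotropic glutamate receptors and GABA-B receptors act more slowly through G proteins. Postsynaptic scaffolds of the Dlg family hold receptors in place. Neurexins on the axon bind neuroligins, LRRTM proteins and other partners across the cleft, and SLITRK and LRFN proteins likewise help to organise excitatory or inhibitory contacts.

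Depth limits what can be seen. A library held 6317420 to 13325019 recovered reads (median 9015221), but 6 noncoding genes took 61.4% to 91.2% of them (median 77.9%). The 27 genes together held 16802 to 84550 reads in a library, or 1.52% to 2.14% of the reads outside those 6 genes. Titles carry a serial number, and the 11 libraries numbered 49 to 60 differ as a set from the 48 numbered 1 to 48. Their noncoding share averaged 71.1 ± 5.33%, against 78.6 ± 6.08% in numbers 1 to 48 (SD). The markers of glutamatergic neurons that were in the table (4 of 10 listed) summed to 37719 to 44939 normalised reads in numbers 49 to 60 (median 38262), against 24601 to 39785 in numbers 1 to 48 (median 32775). All 4, Slc17a7 among them, passed the filter on low reads, and none of the 5 endothelial markers was in the table.

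The levels spanned a wide range per kilobase of exon, where the values are normalised reads divided by the summed exon length. The highest was Gabbr1, the GABA-B subunit that binds the transmitter, at 1925 ± 234 normalised reads per kilobase (SD, n = 59). Also among the highest was Grm3, a metabotropic glutamate receptor coupled to inhibition of cAMP, at 1318 ± 179, which lay above Gria1 in 43 of 59 libraries. Gria1, which encodes the AMPA subunit GluA1, averaged 1074 ± 289 normalised reads per kilobase.

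A middle group followed with levels that overlapped. It ran through Dlg2 (PSD-93) at 689 ± 93.9 normalised reads per kilobase, Grm5 (mGluR5) at 672 ± 121.3, Gabra3 at 632 ± 88.4, Dlg4 (PSD-95) at 604 ± 206, Gabrb2 at 603 ± 102.9 and Dlg3 (SAP102) at 569 ± 157. Each of these 6 lay above the next in 29 to 41 of the 59 libraries. Below them came Gria4, Slitrk1, Nlgn1, Lrfn5, Slitrk3 and Slitrk4, between 451 ± 52.3 and 296 ± 35.8, and then Grik2, a kainate subunit, at 185 ± 45.7. Grid1, a delta subunit, averaged 150.3 ± 29.4 and Lrrtm4 averaged 125.5 ± 17.8, while Cntnap5b at 91.5 ± 28.01 and Grin3a, an NMDA subunit, at 90.05 ± 11.3 overlapped.

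The lowest of the protein-coding genes tested were Cntnap5a at 88.7 ± 21.5 normalised reads per kilobase, Grik1 at 62.7 ± 24.2 and Dlg5 at 60.8 ± 12.5. Grik1 encodes the kainate subunit GluK1 and lay above Dlg5 in 27 of 59 libraries. Grin1os is a noncoding gene on the strand opposite to Grin1, the obligatory NMDA subunit, and 45.2% of its exonic bases overlap Grin1. It averaged 5.17 ± 3.76 normalised reads per kilobase, with a median of 4 reads and at most 23. The library kit marks strand, but the strand setting of the counting is not given in the sources used here, so its reads may include reads of Grin1. Grin3b, an NMDA subunit known mainly from motor neurons, had 1 read in each of 3 libraries and 0 in the others, and was not tested. A count of 0 in a library allows up to 3 reads.

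**Figure D1:**
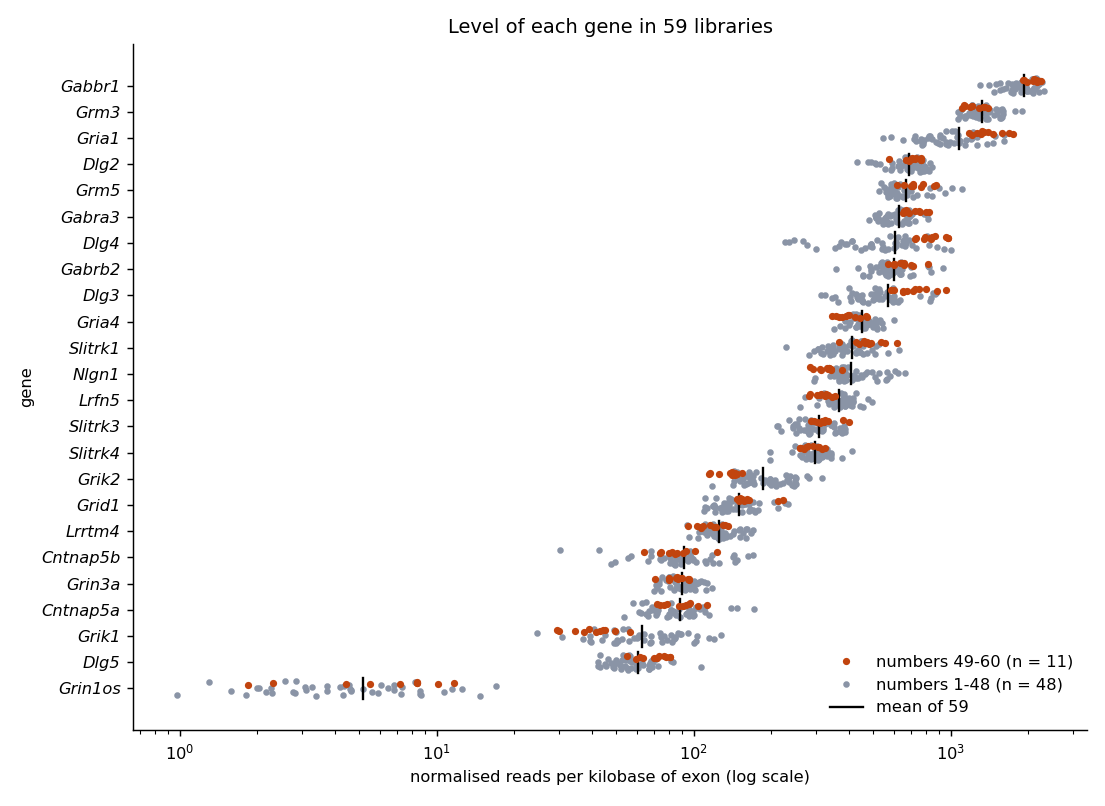
Level of 24 genes in each of the 59 libraries, in normalised reads per kilobase of exon on a log axis, with genes from highest mean (Gabbr1, 1925) to lowest (Grin1os, 5.17). Orange-red points are numbers 49 to 60, grey points numbers 1 to 48, black bars the mean, and libraries with 0 reads of Grin1os cannot be drawn on this axis.

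These genes are long. The 26 tested spanned a median of 279 kb of genome each, against 23.1 kb for all tested genes with an annotation, from 5.36 kb for Slitrk1 to 1973 kb for Dlg2. Their summed exons had a median length of 7024 bases, against 4589. The longest transcript of each had a median GC content of 45.8%, against 49.7%. Dlg4 is on chromosome 11 (GRCm38, 70016942 to 70047522, plus strand) and Nlgn1 on chromosome 3 (25426215 to 26332460, minus strand). Part of the exonic sequence is shared with a gene on the other strand in Lrrtm4 (25.1%) and Nlgn1 (9.16%), which makes their counts less certain.

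The first question the sampling addresses is whether these genes followed a 24 h rhythm. None of the 26 passed the test (limma on log2 values, cosine and sine terms with sex as covariate, adjusted p under 0.05 over all 4273 genes), where 81 genes or 1.90% of all tested did. At an unadjusted p under 0.05 there were 2 of the 26, against 11.4% of all tested genes, and limma with voom weights on the recovered reads also called 0. The fitted amplitude, from the centre to the peak on the log2 scale, ran in the 25 protein-coding genes from 0.017 for Nlgn1 to 0.16 for Cntnap5b, with a median of 0.067. Over all tested genes the median amplitude was 0.076, and over the 81 called genes 0.22.

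The upper 95% bounds of the amplitude were taken along the fitted phase, so somewhat larger amplitudes at other phases are not excluded. These bounds lay between 0.10 and 0.32 (median 0.16), which from trough to peak is 1.15-fold to 1.56-fold (median 1.24-fold). For 20 of the 25 genes the bound lay under the median amplitude of the called genes. The exceptions were Cntnap5b, Slitrk1, Cntnap5a, Grik1 and Dlg4.

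**Figure D2:**
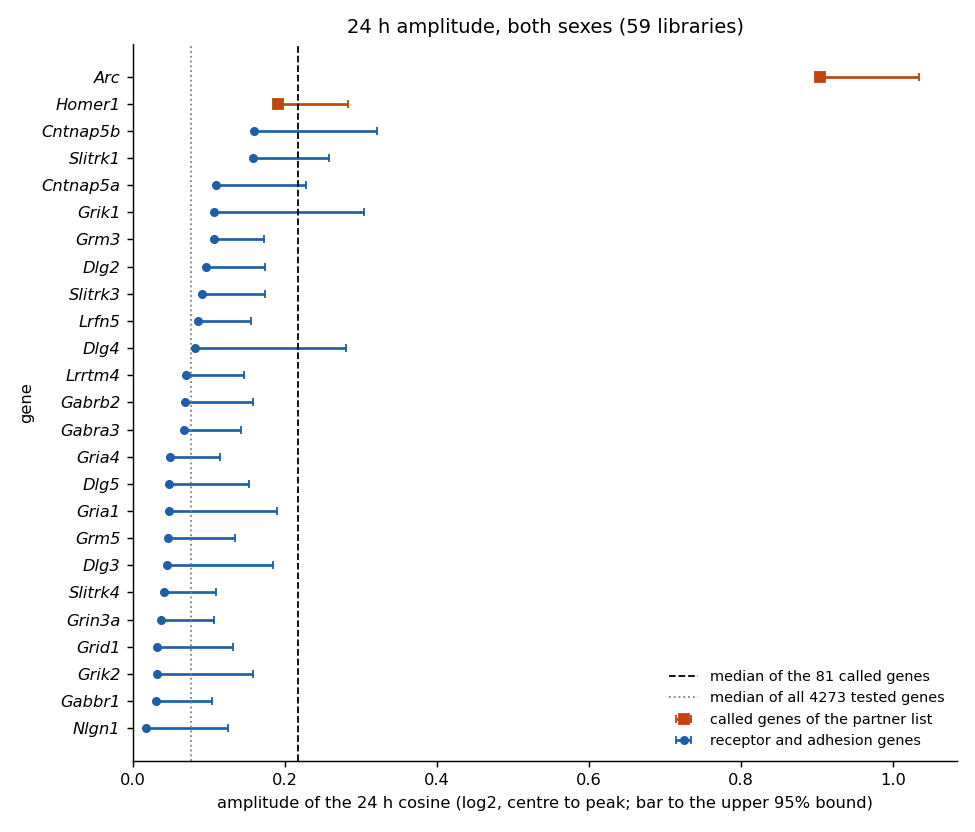
Amplitude of the fitted 24 h cosine (log2, centre to peak) of 23 receptor, scaffold and adhesion genes, with bars to the upper 95% bound, under the partner genes Arc and Homer1 that passed the test. The dashed line is the median of the 81 called genes (0.22) and the dotted line that of all 4273 tested (0.076); all 23 amplitudes lie left of the dashed line, while Arc lies at 0.90.

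The 2 genes with the smallest p were Grm3 and Slitrk1. Slitrk1 encodes a leucine-rich repeat protein of the synapse. Their promoters are printed because they are the members nearest to a rhythm, and the E-box of the clock proteins CLOCK and BMAL1 would be looked for there. Both are from RefSeq, build GRCm38.p6, on the minus strand, from 250 bases before to 50 after the annotated start, 5′ to 3′, with CpG dinucleotides in capitals. The promoter of Grm3 is at chr5:9725303-9725602, and that of Slitrk1 at chr14:108914190-108914489.
Grm3: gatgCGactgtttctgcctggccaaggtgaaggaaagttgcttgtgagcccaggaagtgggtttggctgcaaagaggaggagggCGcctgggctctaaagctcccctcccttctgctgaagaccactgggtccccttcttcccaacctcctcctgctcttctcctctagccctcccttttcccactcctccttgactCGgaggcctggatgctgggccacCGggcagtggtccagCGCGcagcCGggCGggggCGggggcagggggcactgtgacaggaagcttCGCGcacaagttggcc
Slitrk1: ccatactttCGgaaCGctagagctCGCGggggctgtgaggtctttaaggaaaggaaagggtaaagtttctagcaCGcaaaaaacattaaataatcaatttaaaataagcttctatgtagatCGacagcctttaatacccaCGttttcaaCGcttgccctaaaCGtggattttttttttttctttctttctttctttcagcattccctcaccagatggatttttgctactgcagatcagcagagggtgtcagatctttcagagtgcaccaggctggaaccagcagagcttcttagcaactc
The promoter of Grm3 holds 11 CpG dinucleotides at 63.7% GC and that of Slitrk1 holds 9 at 42.3% GC. Neither holds the E-box CACGTG, the D-box TTATGTAA, the cAMP response element TGACGTCA or TAGGTCA, a core of the element bound by ROR and REV-ERB proteins, searched on both strands. Over the 28 promoters that RefSeq gives for 18 of the 27 genes, each of these motifs was found 0 times. Of the 32851 promoters in the table, 7.15% hold the E-box, 0.938% the D-box, 1.79% the cAMP response element and 2.61% TAGGTCA. The absence says only that these letters are not in these windows.

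Slitrk1 had log2 levels (normalised reads plus 1) of 10.26 to 11.33 at ZT2 (median 10.91), 10.72 to 11.72 at ZT6 (median 11.37) and 10.82 to 11.58 at ZT10 (median 11.25). In the dark phase it had 10.67 to 11.49 at ZT14 (median 11.22), 10.86 to 11.31 at ZT18 (median 10.99) and 10.55 to 11.27 at ZT22 (median 10.98). ZT6 was the highest and ZT2 the lowest time, and the libraries of these times overlapped. The fitted amplitude was 0.16 ± 0.05 (SE) with a peak at ZT9.25 and an adjusted p of 0.185, and in males alone 0.22 ± 0.07 with a peak at ZT8.35 and an adjusted p of 0.465 (limma).

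Grm3 had log2 levels of 11.72 to 12.50 at ZT2 (median 11.998), 11.70 to 12.40 at ZT6 (median 12.03) and 11.83 to 12.25 at ZT10 (median 12.02). It had 11.76 to 12.24 at ZT14 (median 11.999), 11.66 to 12.23 at ZT18 (median 11.76) and 11.75 to 12.16 at ZT22 (median 11.89). ZT18 had the lowest median although 1 male reached 12.23 there, and all times overlapped. The amplitude was 0.11 ± 0.03 with a peak at ZT6.57 and an adjusted p of 0.182 (limma).

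Next in order of p came Dlg2, with an amplitude of 0.095 ± 0.04, a peak at ZT1.94 and an adjusted p of 0.458, and Lrfn5 (SALM5), with 0.085 ± 0.03, a peak at ZT7.44 and an adjusted p of 0.471. Dlg2 had a median log2 level of 13.37 at ZT14 and 13.56 at ZT22, its lowest and highest times by mean, and the ranges of 12.78 to 13.49 and 13.40 to 13.72 overlapped. Lrfn5 had medians of 11.84 at ZT10 and 11.64 at ZT18, with ranges of 11.49 to 12.20 and 11.28 to 11.95. Cntnap5b, with the largest amplitude, had medians of 9.03 at ZT6 and 8.81 at ZT18, but its ranges of 8.47 to 9.73 and 7.30 to 9.26 were wide.

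**Figure D3:**
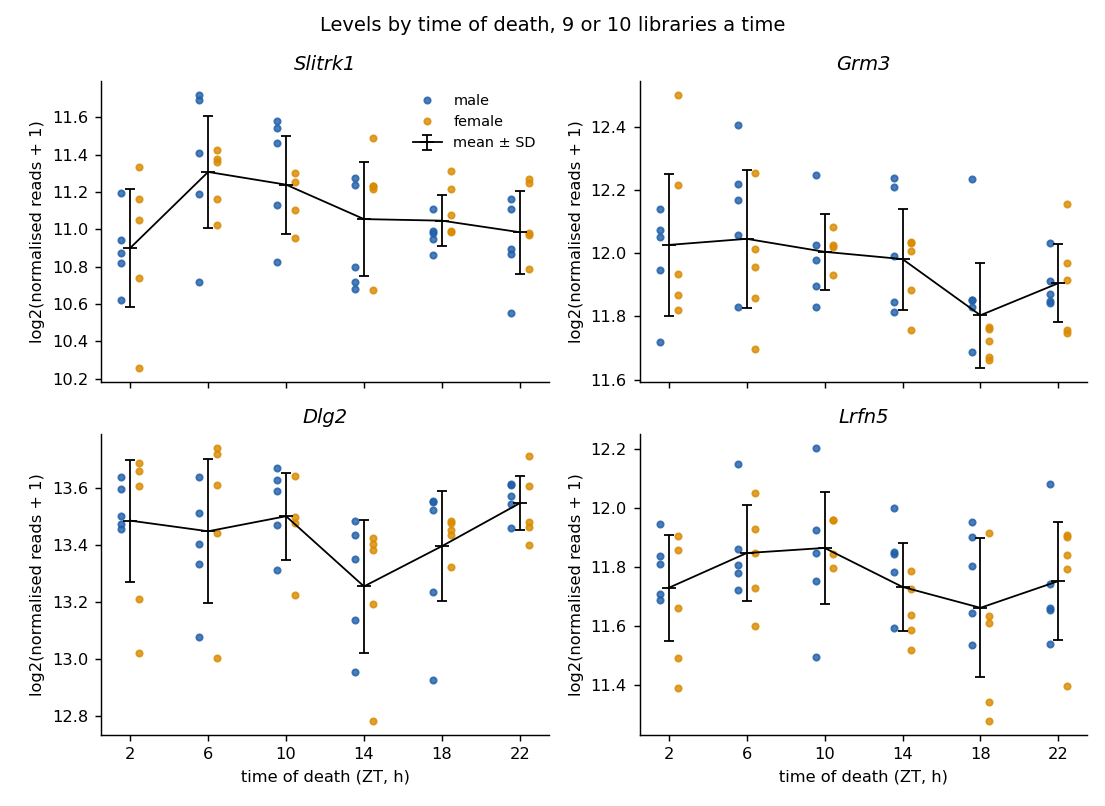
Log2 level (normalised reads plus 1) of Slitrk1, Grm3, Dlg2 and Lrfn5 by time of death, with each library as a point (blue males left, orange females right) and the mean ± SD of the 9 or 10 libraries of a time in black. The libraries of the highest and the lowest time overlap for each gene, and the means of Slitrk1 span 0.41 between times, against an SD of 0.26 within a time.

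The fitted peaks fell mostly in the light phase. Of the 26 genes, 22 (84.6%) had a peak between ZT0 and ZT12, against 50.6% of all tested genes and 25.9% of the called ones, and 19 (73.1%) had one between ZT4 and ZT12, against 35.8% of all. Peaks of amplitudes that passed no test are uncertain, and these genes vary together over the libraries, so the count is a description. Glutamate receptor genes with such peaks were Gria1 (ZT6.80), Gria4 (ZT7.33), Grid1 (ZT10.6), Grik1 (ZT5.37), Grik2 (ZT5.55), Grin3a (ZT7.59), Grm3 (ZT6.57) and Grm5 (ZT7.04). GABA receptor genes were Gabra3 (ZT8.16) and Gabbr1 (ZT11.5). Dlg4 (ZT22.6), Dlg3 (ZT16.7), Gabrb2 (ZT12.4) and Grin1os (ZT19.8) peaked outside.

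The number of genes called rested on how shared variation between libraries was treated. With the first 2 principal components of the tested genes as covariates, 7 of the 26 genes passed, where 499 genes or 11.7% of all tested did. These were Slitrk1 (amplitude 0.17 ± 0.03, peak ZT9.10, adjusted p = 9.29e-06 in limma), Grm3 (0.10 ± 0.02, ZT5.89, adjusted p = 0.0041), Cntnap5b (0.19 ± 0.05, ZT3.88), Dlg2 (0.064, ZT3.26), Gria1 (0.067, ZT6.05), Gabbr1 (0.058, ZT11.3) and Lrfn5 (0.076, ZT7.38). All 7 peaks lay between ZT0 and ZT12, against 40.7% of the 499. The amplitudes were close to those without the components, except for Dlg2, Gabbr1 and Gria1, and the standard errors were smaller. The components were taken from the same values, these genes included, and the fit treats them as known, so its p-values can be too small. No other alternative run for the rhythm called any of the 26.

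In males alone 0 of the 26 genes passed, with 0.164% of all tested genes called, and in females alone 0 with 0.328% (voom weights also called 0 of the 26 in each). With the principal components as covariates Slitrk1 passed in males, where 2.86% of all tested genes did, and Cntnap5b in females, where 2.83% did. At an unadjusted p under 0.05 there were Slitrk1 and Cntnap5a in males, and Lrrtm4, a postsynaptic neurexin ligand, in females (limma). Cntnap5a had an amplitude of 0.19 ± 0.06 in males with a peak at ZT10.3 and an adjusted p of 0.546, and Lrrtm4 one of 0.16 ± 0.05 in females with a peak at ZT5.35 and an adjusted p of 0.490. A direct test of whether the rhythm of males differed from that of females passed for 0 of the 26 genes and 0% of all tested genes, with 0 of the 26 and 180 genes in all at an unadjusted p under 0.05 (limma; 0 of the 26 also with voom weights). The smallest p among the 26 was that of Lrrtm4, with an adjusted p of 0.741.

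A test of any difference among the 6 times, which assumes no cosine, called 0 of the 26 genes, where 1.05% of all tested genes passed. Slitrk1, Dlg2 and Grm3 had an unadjusted p under 0.05 (limma; voom weights called 0). The means of Slitrk1 spanned 0.41 on the log2 scale (adjusted p = 0.239), those of Dlg2 0.29 (adjusted p = 0.473) and those of Grm3 0.24 (adjusted p = 0.473). With the principal components as covariates 4 of the 26 passed, namely Slitrk1, Gabbr1, Lrfn5 and Grm3, where 6.79% of all tested genes did.

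The dark phase (ZT14, ZT18 and ZT22) was then set against the light phase (ZT2, ZT6 and ZT10). None of the 26 genes passed, where 0.702% of all tested genes did (0.538% higher and 0.164% lower), and 1 had an unadjusted p under 0.05 (limma; voom weights called 0). That gene was Grm3, which differed by -0.13 ± 0.05 on the log2 scale (adjusted p = 0.308). Lrfn5 differed by -0.099 ± 0.05 (adjusted p = 0.612) and Slitrk1 by -0.12 ± 0.07 (adjusted p = 0.690). Estimates were below 0 for 18 of the 25 protein-coding genes, against 50.4% of all tested genes, with a median of -0.039 and a range from -0.17 to 0.091. No 95% interval of the 25 reached beyond 0.40 in either direction, or 1.32-fold. With the principal components as covariates Grm3, Slitrk1, Gria1 and Cntnap5b passed, all lower in the dark phase, where 4.82% of all tested genes passed in either direction.

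Males were set against females over all times. None of the 26 genes passed, 0 had an unadjusted p under 0.05, and 0.0234% of all tested genes passed (limma; voom weights called 0). Grin1os had log2 levels of 0 to 5.44 in 30 males (median 3.96) and 0 to 5.65 in 29 females (median 3.56), and differed by 0.62 ± 0.32 (adjusted p = 0.999). Slitrk3, a partner of the inhibitory synapse, had 10.01 to 10.88 in males (median 10.42) and 10.002 to 10.93 in females (median 10.59), a difference of -0.10 ± 0.06 (adjusted p = 0.999). Lrfn5 had 11.49 to 12.20 in males (median 11.80) and 11.28 to 12.05 in females (median 11.78), a difference of 0.078 ± 0.05 (adjusted p = 0.999). The sexes overlapped throughout for these 3 genes. Among the 25 protein-coding genes the differences lay between -0.10 and 0.080 (median -0.014), and no 95% interval reached beyond 0.39, or 1.31-fold.

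The partner genes of these receptors were described from 5 lists. Of 14 tested postsynaptic scaffold and signalling partners (29 listed), 2 passed the 24 h test, with 1.90% of all tested genes passing. They were Arc, an immediate early gene that drives the removal of AMPA receptors from the membrane, whose amplitude was 0.90 ± 0.07 and whose peak lay at ZT18.1 (adjusted p = 6.02e-16, limma), and Homer1, a scaffold of group I metabotropic receptors such as mGluR5, with 0.19 ± 0.05 and a peak at ZT22.7 (adjusted p = 0.030, limma). Arc also rose in the dark phase, by 1.19 ± 0.09, whereas Grm5 differed by -0.034 ± 0.06 and passed no test. None passed among 18 tested genes of other synaptic adhesion and organiser proteins (51 listed), 10 of transmitter synthesis, transport and chloride balance (19 listed), 3 GABA receptor partners (12 listed) and 2 auxiliary subunits (19 listed). At an unadjusted p under 0.05 there were 2, 0, 2 and 0 of these (limma). Their median amplitudes were 0.072, 0.029, 0.086 and 0.030, and that of the scaffold partners 0.075.

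Libraries differed widely within and between groups. From the lowest to the highest of all 59 libraries the 25 protein-coding genes spanned a median of 2.12-fold and up to 5.63-fold (Cntnap5b). Within groups the SD on the log2 scale had a median of 0.24, against 0.35 for all tested genes, and reached 0.58 for Dlg4. The female library ZT2 replicate 4 held the lowest value of 9 of the 25 genes, among them Dlg4, Gabbr1, Gria1 and Slitrk1, and the highest of Grm3. The female library ZT6 replicate 4, with a noncoding share of 63.9%, held the highest value of 8, among them Gabrb2, Grm5 and Grid1.

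The genes moved together in opposite sets. Correlations here are those of deviations from the group means over the 59 libraries, which share a scaling and, within a run of serial numbers, perhaps handling. Of the 300 pairs among the 25 genes, 72 (24%) had a Pearson r over 0.5, against 10.01% of all pairs of tested genes, and 45 (15%) had one under -0.5, against 9.80%. The 6 pairs given next are among those of largest r in either direction, chosen after their values were seen. Each had the smallest permutation p that 100000 resamples can give, 1e-05, two-sided, for r and for Spearman's rho (3.12e-05 and 3.57e-05 adjusted over the 300 pairs). The permutation treats libraries as exchangeable, which variation shared between libraries can break, so these p-values can be too small. Of the 300 pairs, 201 had an adjusted permutation p under 0.05 for r.

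Dlg4 and Gabbr1 varied together, with r = 0.92 and rho = 0.89 (n = 59). Leaving out the 2 libraries farthest from the median of Dlg4 gave r = 0.90. Within numbers 49 to 60 r was 0.78 (n = 11), and within numbers 1 to 48 it was 0.92 (n = 48). Numbers 49 to 60 hold at most 1 library of a group, so their deviations are from group means that include numbers 1 to 48. Values of r within numbers 49 to 60, here and for the pairs below, are therefore not an independent check.

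Grik2 and Nlgn1 (neuroligin 1, an adhesion protein of excitatory synapses) also moved together, with r = 0.91 and rho = 0.89, and 0.89 without the 2 farthest libraries. Here r was 0.33 within numbers 49 to 60 and 0.90 within numbers 1 to 48. Against Dlg4 both ran the other way. Dlg4 with Nlgn1 gave r = -0.94 and rho = -0.93 (-0.92 without the 2 farthest; -0.58 within numbers 49 to 60 and -0.93 within numbers 1 to 48). Dlg4 with Grik2 gave r = -0.93 and rho = -0.94 (-0.92 without the 2 farthest; -0.52 within numbers 49 to 60 and -0.92 within numbers 1 to 48).

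The remaining 2 pairs brought in Dlg3 and Gria1, and set Gabbr1 against Nlgn1. Dlg3 with Gria1 gave r = 0.91 and rho = 0.90 (0.89 without the 2 farthest; 0.60 within numbers 49 to 60 and 0.89 within numbers 1 to 48). Gabbr1 with Nlgn1 gave r = -0.88 and rho = -0.82 (-0.85 without the 2 farthest; -0.32 within numbers 49 to 60 and -0.91 within numbers 1 to 48).

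In order of r with Dlg4, 7 of the other 24 genes lay over 0.5, against 20.4% of the other 4272 tested genes, and 7 lay under -0.5, against 24.3%. The first were Gabbr1, Gria1, Slitrk1, Dlg2, Dlg3, Gabra3 and Slitrk3. The second were Nlgn1, Grik2, Grik1, Gria4, Lrfn5, Grm3 and Grin3a. AMPA subunits stood on both sides, Gria1 with Dlg4 and Gria4 against it, while both kainate subunits stood against it. With such shares of all tested genes on either side, the sides are not shown to be particular to these receptor classes.

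**Figure D4:**
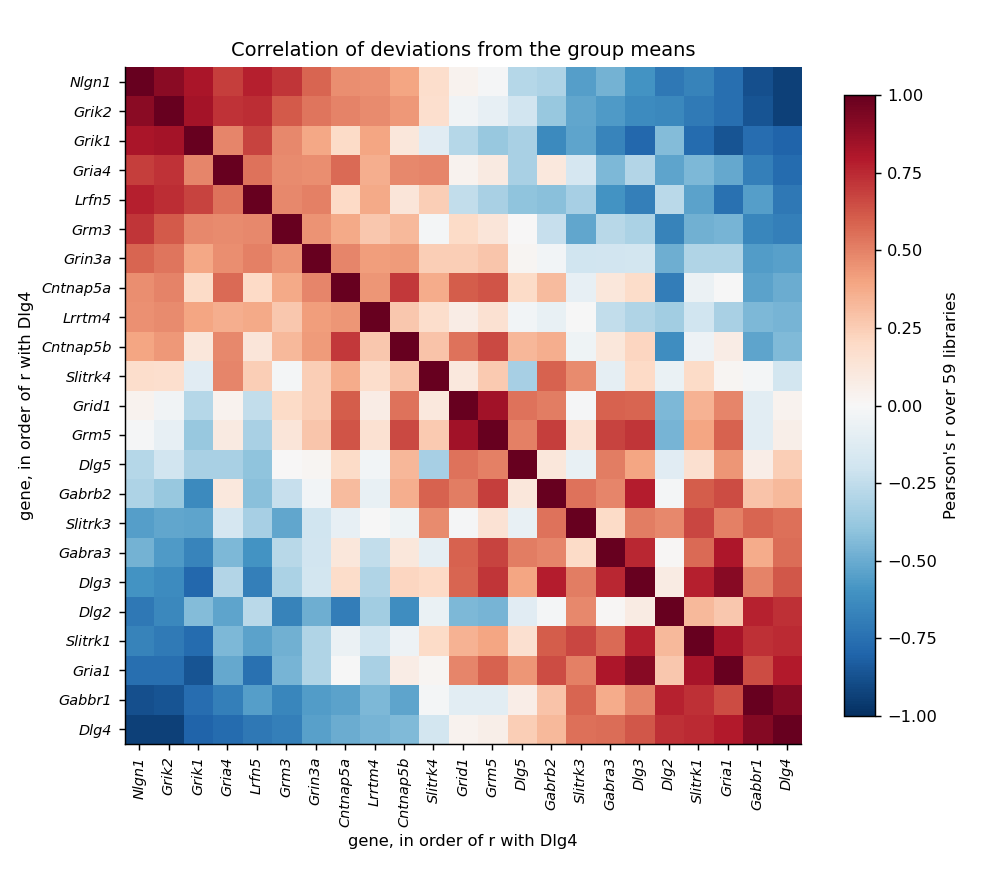
Pearson's r between the deviations from the group means of each pair of 23 genes over 59 libraries, red for positive and blue for negative, in order of r with Dlg4. Genes at the top left (Nlgn1, Grik2, Grik1) and at the bottom right (Gabbr1, Gria1, Dlg4) correlate within their corner and inversely between corners, down to -0.94 for Dlg4 with Nlgn1.

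Gabbr1 and Grik2 stand on opposite sides, with r = -0.86 between them, and each has a single start in the promoter table, so their promoters are printed as examples of the 2 sides. They are from RefSeq, build GRCm38.p6, with CpG dinucleotides in capitals, at chr17:37045716-37046015 on the plus strand for Gabbr1 and chr10:49788705-49789004 on the minus strand for Grik2.
Gabbr1: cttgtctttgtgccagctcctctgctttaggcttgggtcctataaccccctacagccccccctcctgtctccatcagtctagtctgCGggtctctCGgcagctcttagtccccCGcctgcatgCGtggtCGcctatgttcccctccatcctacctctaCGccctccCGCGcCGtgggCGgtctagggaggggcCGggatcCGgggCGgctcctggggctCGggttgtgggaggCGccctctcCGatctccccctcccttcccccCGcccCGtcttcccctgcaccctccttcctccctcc
Grik2: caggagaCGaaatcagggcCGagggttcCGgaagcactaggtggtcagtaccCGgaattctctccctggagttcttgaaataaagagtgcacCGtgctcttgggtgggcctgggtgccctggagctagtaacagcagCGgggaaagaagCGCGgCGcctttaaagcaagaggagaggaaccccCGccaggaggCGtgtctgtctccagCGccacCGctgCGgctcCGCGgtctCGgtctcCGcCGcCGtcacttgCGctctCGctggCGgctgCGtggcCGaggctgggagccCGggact
That of Gabbr1 holds 18 CpG dinucleotides at 67.3% GC and that of Grik2 holds 26 at 64.7% GC. The 28 promoters of these genes had a median of 9 CpG dinucleotides and 56.2% GC, against 7 and 52.7% for all promoters in the table.

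Markers of glutamatergic neurons moved with these sets, and correlations with the markers of other cell types are not given here. The summed markers of glutamatergic neurons followed Dlg4 with r = 0.89 and rho = 0.89 (0.88 without the 2 farthest libraries; 0.82 within numbers 49 to 60 and 0.85 within numbers 1 to 48). They ran against Nlgn1 with r = -0.81 and rho = -0.80 (-0.80 without the 2 farthest; -0.34 within numbers 49 to 60 and -0.77 within numbers 1 to 48). Permutation p-values of these 2 relations were 1e-05 for r and for rho, two-sided, the smallest that 100000 resamples give, and can be too small for the same reason as those of the pairs. As for the pairs, r within numbers 49 to 60 is not independent of numbers 1 to 48. The part of cell composition in the pattern was not tested. In homogenate tissue fewer cells of a type and less RNA per cell cannot be told apart.

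Libraries with serial numbers 49 to 60 were set against numbers 1 to 48 within groups. Of the 26 genes 12 passed (46.2%), 7 higher and 5 lower, where 54.0% of all tested genes passed, 23% higher and 31% lower, so the share called was near that of all genes. Dlg4 was highest, with log2 levels of 13.23 to 13.66 in 11 libraries of numbers 49 to 60 (median 13.44) and 11.55 to 13.70 in 48 libraries of numbers 1 to 48 (median 12.83). All 11 lay above the median of the others, and the groups overlapped. The difference was 0.71 ± 0.16 (SE, adjusted p = 0.000244, limma).

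The other genes higher in numbers 49 to 60 were Gria1 (0.53 ± 0.11), Dlg3 (0.47 ± 0.11), Slitrk1 (0.31 ± 0.08), Dlg5 (0.27 ± 0.09), Gabra3 (0.22 ± 0.06) and Gabbr1 (0.18 ± 0.06). Those lower were Grik1 (-0.66 ± 0.15), Grik2 (-0.50 ± 0.10), Nlgn1 (-0.37 ± 0.09), Lrfn5 (-0.24 ± 0.06) and Gria4 (-0.19 ± 0.06), with adjusted p from 4.53e-05 to 0.0145 over these 12 (limma). Grik2 had 10.57 to 10.996 in numbers 49 to 60 (median 10.86) and 10.61 to 12.03 in numbers 1 to 48 (median 11.32). Of all tested genes 982 were higher and 1325 lower, and scaled by library totals, which moved the median of all genes by 0.36, 1965 were higher and 64 lower. Of the 26 genes 15 were then called higher and 0 lower, and with voom weights 12 were called higher and 5 lower. Under library totals Grik1 (-0.24, adjusted p = 0.242) and Grik2 (-0.078, adjusted p = 0.710) were still below 0 but not called (limma). Scaled by library totals Gria4 (0.23), Lrfn5 (0.18) and Nlgn1 (0.051) turned to higher, each by less than that median. In the same comparison 4 of 4 glutamatergic and 4 of 7 GABAergic markers were higher, 0 of 4 astrocyte markers passed and 1 of 2 microglial markers was lower. What set these libraries apart was not tested.

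**Figure D5:**
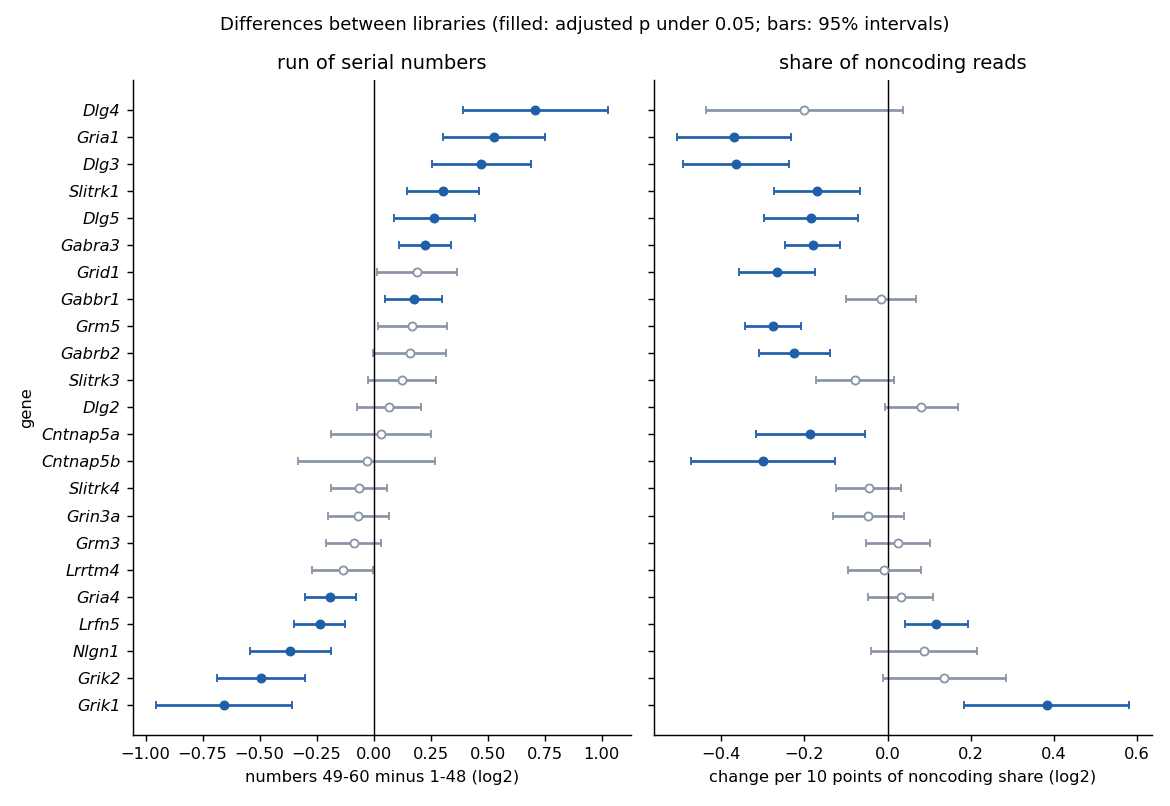
Left, difference of numbers 49 to 60 minus numbers 1 to 48 on the log2 scale, and right, change per 10 percentage points of noncoding share, for 23 genes with 95% intervals and filled points where the adjusted p is under 0.05. On the left Dlg4 is highest at 0.71 and Grik1 lowest at -0.66; on the right 10 filled points lie below 0 and Grik1 and Lrfn5 lie above.

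The share of reads taken by the 6 noncoding genes was also used as a covariate, within groups. With a higher share 12 of the 26 genes were lower and 2 higher, where 22.9% of all tested genes were lower and 29.9% higher, and 52.8% passed in all. Per 10 percentage points of share large decreases were those of Gria1 (-0.37 ± 0.07), Dlg3 (-0.36 ± 0.06), Cntnap5b (-0.30 ± 0.09), Grm5 (-0.28 ± 0.03), Grid1 (-0.27 ± 0.05), and Gabrb2 (-0.22 ± 0.04), with adjusted p up to 0.0031 (limma). Smaller decreases were those of Cntnap5a (-0.19), Dlg5 (-0.18), Gabra3 (-0.18) and Slitrk1 (-0.17). Grik1 (0.38 ± 0.10) and Lrfn5 (0.12 ± 0.04) were higher.

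Grm5 stood out with the smallest p of the 26 (adjusted p = 5.86e-09, limma). It had a slope of -0.29 without numbers 49 to 60. Without those libraries 9 of the 14 calls were left, and Grik1, Lrfn5, Slitrk1, Dlg5 and Cntnap5a were no longer called. Without the female library ZT6 replicate 4 Cntnap5a was no longer called (-0.13, adjusted p = 0.0847), although 15 of the 26 genes were called there, against 14 with all libraries. Of all tested genes 1278 were higher and 977 lower, and scaled by library totals, which moved the median of all genes by -0.57, 2 were higher and 3969 lower. In that scaling all 26 genes were called lower, and the slopes of Grik1 (-0.23) and Lrfn5 (-0.50) lay above that median. With a higher share 3 of 4 astrocyte and 2 of 2 microglial markers were higher, and 4 of 4 glutamatergic and 3 of 7 GABAergic markers were lower. The part of these cell types in the slopes was not tested.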

How the data were processed

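Total RNA of homogenate medial prefrontal cortex was sequenced in 59 libraries. Per the labels' protocols, the kits were Qiagen RNeasy Plus Micro for RNA and Takara SMART Stranded Total RNA for libraries. The submitters' processing notes name FastQC, HTSeq, DESeq2 and the build GRCm38, without versions; the aligner and the strand setting are not given in the sources used here. The deposited table gives, for each gene, log2 of the count divided by a size factor plus 1, that is log2(x + 1) of the authors' scaled counts, as its values show. Whole reads were recovered from the steps of these values (all within 0.0202 of a whole number) and served for depth, the filter and the alternatives.

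Groups came from the time and sex in the titles. Replicates are numbered by runs of 12 serial numbers. Animal numbers repeat within every group of time and sex, and libraries were taken as separate animals. The p-values therefore measure only the spread between these libraries. If a repeated number marks the same animal, the libraries of a group are not independent. The 27 genes, the gene lists and the split at serial number 49 were chosen with earlier results of these data known.

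A gene was tested if 4 or more libraries had 10 or more recovered reads of it. The fits used limma 3.58.1 (eBayes with trend and robust set) under R 4.3.3, and the Benjamini-Hochberg adjustment ran over all 4273 genes. The rhythm test was checked on simulated data in which genes varied independently. That check does not cover variation shared between libraries. The alternatives were limma with voom weights on the recovered reads, 2 other scalings, other filters, the run of serial numbers as a block, 2 principal components as covariates, and leaving out libraries. Positions and exon lengths are from GENCODE M21 on GRCm38. Every gene of the symbol rule may be named, with full statistics for called genes and the 3 of smallest p in each comparison, and from the partner lists the called ones; pairs were named by the size of r. Correlations used deviations from the group means with 100000 permutations. Fitted amplitudes and folds are on the log2(value + 1) scale, which understates changes of low genes. Floors cover counting error only. Some genes are included in counts and summed values and are not reported here by name.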

Additional observations from a re-analysis of the deposited data

Results flagged for a closer look

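In 2 of the 36 groups of 9 or 10 libraries of a time that were looked at for 6 genes (Slitrk1, Grm3, Dlg2, Lrfn5, Cntnap5b and Grik1), 1 library lay far from the others by Dixon's ratio, and chance gives about 1 in 20. At ZT18 the male library of replicate 4 had the highest log2 level of Grm3, 12.23, where the nearest other library had 11.85. The same library had the lowest level of Dlg2 at that time, 12.93, where the nearest had 13.24. Without the male library the amplitude of Grm3 was 0.12, the highest of its values without 1 library, and it still passed no test.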

How the results depend on the processing

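None of the 26 genes passed in a comparison of time or sex under voom weights, other scalings or filters, the replicate block, averaging by animal number, leaving out numbers 49 to 60 or leaving out any library. With 2 principal components as covariates, genes called among the 26 were 7 for the rhythm (0 without), 1 in males, 1 in females, 4 for any time and 4 for dark minus light. They were 0 (12 without) for numbers 49 to 60 minus 1 to 48 and 0 (14 without) for the slope on noncoding share. The components were taken from the same values and can take up these last 2 differences. Those counts of 0 therefore do not show that the differences are absent. As the fit treats the components as known, the p-values behind its calls for time can be too small.

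As shares of all tested genes, the deposited scale without covariates called 1.90%, 0.164%, 0.328%, 1.05% and 0.702% for the rhythm, males, females, any time and dark minus light, 0.0234% for male minus female, 54.0% for numbers 49 to 60 and 52.8% for the slope. With the components these were 11.7%, 2.86%, 2.83%, 6.79% and 4.82%, then 0.0702%, 0.702% and 0.211%. Library totals gave 0.0702%, 0.0234%, 0.0234%, 0.0468% and 0.140% for the time comparisons and 0% for male minus female. They gave 92.9% for the slope, where all 26 genes were called. That share follows from the scaling, as the totals include the 6 noncoding genes. Under library totals, genes called for dark minus light were 6 higher and 0 lower, against 23 higher and 7 lower on the deposited scale. Totals without the 6 noncoding genes gave 0.281% in males, and 23 higher and 3 lower genes for dark minus light. Without numbers 49 to 60 the time comparisons gave 1.17%, 0.0936%, 0.117%, 0.608% and 0.304%, and the slope 26.7% with 9 of the 26 genes. Averaging by animal number gave 0.0234% in males, 0.164% in females, 0.585% for any time and 0.351% for dark minus light. The cause of the other shifts was not tested.

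The replicate block gave 0.351% of all tested genes in males, 2.13% for any time, 1.08% for dark minus light and 0.0468% for male minus female. Each run of serial numbers holds a library of every group, except that the last lacks a ZT10 female. The main fits did not use the run. Deviations of libraries of the same run correlated by 0.107 on average (-0.49 to 0.60, 319 pairs). Those of different runs correlated by -0.026 (-0.68 to 0.63, 1276 pairs).

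Leaving out 1 library gave 1.73% to 2.25% of all tested genes for the rhythm, 0.0936% to 0.257% in males (lowest without ZT14 male replicate 5, highest without replicate 4 of ZT6 males, or replicate 5 of ZT18 males or of ZT22 males), 0.211% to 0.398% in females (lowest without ZT10 female replicate 3), 0.772% to 1.31% for any time, 0.585% to 0.889% for dark minus light, 0.0234% to 0.0234% for male minus female, 49.1% to 55.3% for numbers 49 to 60 and 47.3% to 54.3% for the slope. Of the 26 genes it gave 12 to 15 for numbers 49 to 60, 14 to 15 for the slope and 0 to 0 in every other comparison.

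With the components as covariates, the sign turned for numbers 49 to 60 in Gria1 (-0.11), Dlg4 (-0.073), Dlg3 (-0.080), Grik1 (0.11), Gabbr1 (-0.052), Nlgn1 (0.026) and Slitrk1 (-0.060), and for the slope in Dlg3 (0.12), Gabrb2 (0.012), Gria1 (0.035) and Slitrk1 (0.066). Under library totals it turned for numbers 49 to 60 in Gria4 (0.23), Lrfn5 (0.18) and Nlgn1 (0.051), and for the slope in Grik1 (-0.23) and Lrfn5 (-0.50). The cause was not tested. The block, leaving out numbers 49 to 60 and averaging by animal number were not run for numbers 49 to 60 minus 1 to 48, which they would remove or mix. Depth limits Grin1os and Grin3b most.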
